A study of Mus musculus with 8 samples.

Results

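The late phase of the LPS response was followed in wild-type (WT) peritoneal macrophages, by comparing their RNA after 24 h of LPS with that after 4 h. These are 4 of the 16 RNA samples on the 8 arrays of the series, 2 at each of the 2 times. They were taken by genotype and by the time in the sample titles, with no measured value used. The comparison itself was chosen with earlier results of these data known. Every gene probe of the arrays was read in them. The macrophages came from the peritoneal cavity of C57BL/6 mice, the WT animals being littermates of LysMCre-fur fl/fl mice (KO), in which Cre expressed from the lysozyme 2 locus deletes furin in myeloid cells. Adherent cells were kept after a day of culture, moved to medium with little serum, and given LPS at 1 μg/ml. Each RNA of one genotype shared an Agilent 2-colour array with RNA of the other genotype at the same time. WT RNA carried Cy3 in replicate 1 and Cy5 in replicate 2 at both times, so that a dye effect common to both times cancels in the change from 4 h to 24 h. A growth protocol that names 4 h for every sample accompanies the labels, and the times used here are those of the titles. The labels call the replicates biological and do not say which animals they came from. Cells under LPS for 24 h had also been 20 h longer in culture, and no unstimulated sample is labelled with a matched time, so time under LPS and time in culture cannot be told apart.

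LPS is sensed by TLR4, which starts NF-kB and MAP kinase signalling within minutes and, through the adaptor TRIF, the production of interferon-β. Interferon-β then acts back on the same cells and induces a large set of antiviral genes. As the response ages, inhibitors of the pathway, decay of short-lived messengers and cytokines such as IL-10 bring many of these genes down, while others stay high, and macrophages change their metabolism and the receptors they display.

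In each WT sample of these 2 times, between 43.8% and 48.3% of the gene spots were well above background, and none was saturated. All 8 arrays lay on 1 slide. Levels are given throughout as normalized log2 intensities, replicate 1 first and replicate 2 second, and are compared within a gene only. The macrophage markers Adgre1, Csf1r, Itgam, Lyz2, Cd14 and Mertk were well above background in all 4 samples, as were the other 3 measured of the list, and the summed intensity of the 9 was 18.77 and 18.47 on the log2 scale at 4 h and 17.96 and 18.05 at 24 h. B cell markers were also present, with summed levels of 15.27 and 15.51 at 4 h and 15.56 and 15.48 at 24 h. Markers of mesothelial cells and fibroblasts had summed levels of 13.56 and 11.45 in replicates 1 and 2 at 4 h and 13.83 and 11.80 at 24 h, a little higher at 24 h in each replicate, and the replicates lay further apart than the times. The housekeeping list had summed levels of 19.81 and 19.73 and 20.08 and 19.87. In RNA from whole cultures, fewer cells of a type and less RNA per cell cannot be told apart.

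Between 4 h and 24 h, 10971 of 36936 genes and transcripts changed (29.7%, adjusted p under 0.05, limma). Of these, 5571 were higher and 5400 lower at 24 h, a split that becomes 8262 higher and 2094 lower when the arrays are not scaled to each other. Without that scaling (called unscaled below), the change of each of the 253 called genes given with values below was more positive, by a median of 0.36 log2 units, as was the median of each of the 35 gene groups, by 0.02 to 0.50. It moved 62 of those genes by over 1.5 times and took the call or the sign from 34. Some of the called genes lost the call or moved by over 1.5 times unscaled, with 1 of the 4 samples left out or under another setting. They are given at the end of their paragraph, with the log2 change found there in parentheses. Leaving out a sample took out its whole array, and with it the KO sample in the other dye. The other settings are the scanner software's own processed signals and an offset of 10 in place of 50 in the background correction. They include the mean of all probes of a gene in place of its brightest, Aquantile scaling between arrays and the replicate number as a term (replicate block). The last are fits of the 8 WT samples or of these 4 alone, which leave the changes as they are. Under the t-test of the study's methods after Benjamini-Hochberg, 252 of the 253 lost the call, and these losses are not listed by gene. At least 2-fold changes numbered 2057 upward and 1543 downward, and at least 4-fold changes 395 and 259. Each of the 10971, called from these same values, moved the same way in both replicates, which the call nearly requires. Across genes, which are not independent replicates, the change in replicate 1 and that in replicate 2 had a Pearson's r of 0.904. Among the 20839 genes with a symbol, 7621 changed (36.6%), 4162 of them upward and 3459 downward. Of the 11512 of these that were well above background in all 4 samples, 58% changed, 30.4% upward and 27.6% downward, and the shares of the gene groups below are to be read against these values.

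**Figure D1:**
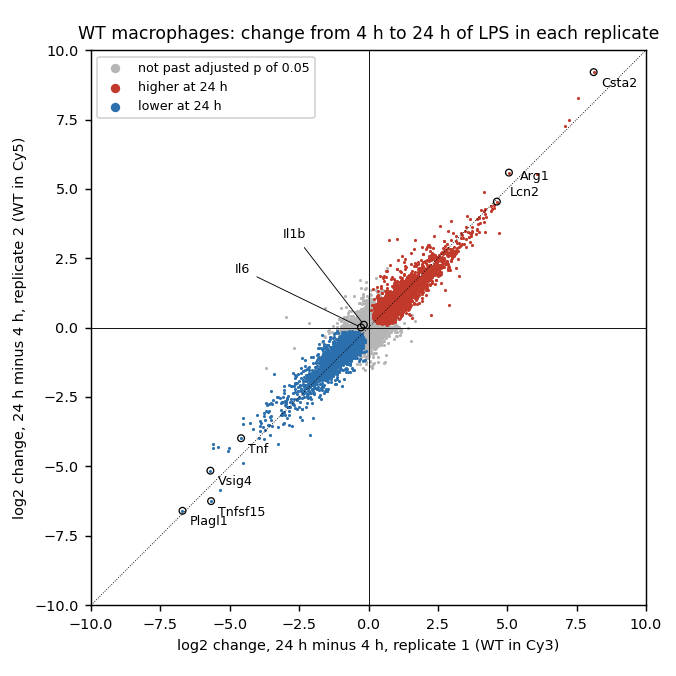
Each point is 1 of 20839 named genes, with its log2 change from 4 h to 24 h of LPS in WT macrophages in replicate 1 on the horizontal axis and in replicate 2 on the vertical axis, and a dotted line where both are equal. Genes past an adjusted p of 0.05 are red where higher and blue where lower at 24 h. Csta2 lies at 8.12 and 9.21, Plagl1 at -6.71 and -6.60, and Il1b at -0.17 and 0.10, close to the centre.

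The 10 largest increases among genes well above background in all 4 samples were those of Csta2, Stfa3, Arg1, Lcn2, U90926, Scd2, Cdca3, Siglec1, Rrm2 and Plk1. Csta2, a member of the stefin A family of cysteine protease inhibitors, had log2 intensities of 8.67 and 7.20 at 4 h and 16.78 and 16.41 at 24 h. Both samples at 24 h lay far above both at 4 h, by a mean of 8.66 (standard error 0.40, adjusted p = 5.23e-09), a 405-fold increase. Stfa3 of the same family rose by 5.80 (adjusted p = 5.56e-09), and Csta3, which was not well above background at 4 h, was at least 17.9-fold higher at 24 h (mean log2 intensity 6.34 at 4 h and 10.65 at 24 h on the scale used for this bound, adjusted p = 1.42e-10). Stfa2l1 (log2 change 7.17, adjusted p = 3.85e-10), Cstdc4 (log2 change 7.36, adjusted p = 1.01e-09) and Cstdc5 (log2 change 7.92, adjusted p = 6.05e-10), named after their values were seen, were each well above background in 1 of the 2 samples at 4 h and rose as well. These family members are near-identical copies, and a probe may not tell them apart. Lcn2, which encodes the siderophore-binding protein lipocalin 2, rose from 12.84 and 12.51 to 17.47 and 17.06 (log2 change 4.59, standard error 0.21, adjusted p = 5.11e-09). Arg1 encodes arginase 1, which breaks down arginine. Its levels were 10.17 and 8.16 at 4 h and 15.23 and 13.75 at 24 h, so the replicates differed by more than 1 log2 unit at each time but did not overlap between times, and the mean change was 5.33 (standard error 0.70, adjusted p = 4.01e-05). U90926, a transcript annotated without a known protein function, rose by 4.53 (adjusted p = 4.40e-10), Scd2, a stearoyl-CoA desaturase, by 4.47 (adjusted p = 6.94e-07), and Siglec1, the sialic acid receptor sialoadhesin, by 4.36 (adjusted p = 7.52e-07) at its brightest probe, with a change of 0.54 at another. The other 3 of the 10 largest increases, Cdca3, Rrm2 and Plk1, belong to the cell cycle. Csta3 (7.25) moved by over 1.5 times with the processed signals, and Siglec1 (2.45) with the mean of all probes.

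Among neutrophil markers, S100a8 was also higher at 24 h, with levels of 11.17 and 10.98 at 4 h and 15.85 and 14.40 at 24 h (log2 change 4.05, standard error 0.36, adjusted p = 1.32e-06). Over the 10 markers measured, S100a8 and Camp (log2 change 0.76, adjusted p = 0.00180) were higher and Elane (log2 change -0.44, adjusted p = 0.0126) lower, the summed level went from 12.60 and 12.44 to 15.94 and 14.62, and S100a9, Mpo, Cxcr2, Retnlg and Ngp were not well above background at either time. The part of these cells in the rise of Lcn2 and the stefins was not tested. Elane (0.07) was not called unscaled. Camp (1.31) moved by over 1.5 times unscaled. Elane (-0.40) lost the call without the 4 h sample of replicate 1.

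Some of the largest decreases were in genes that 4 h of LPS had brought up from a low level, and others in genes of the resident macrophage. Plagl1, a zinc finger transcription factor, had log2 intensities of 13.97 and 13.89 at 4 h and 7.26 and 7.29 at 24 h, against a mean of 6.98 in unstimulated WT macrophages. The mean change was -6.65 (standard error 0.13, adjusted p = 4.07e-12), a 101-fold decrease, and its other probes gave -6.35 to -0.84. Tnfsf15, a TNF family cytokine, went from 13.17 and 13.21 to 7.50 and 6.95 (log2 change -5.96, standard error 0.19, adjusted p = 3.88e-10), and Calhm6, of the calcium homeostasis modulator family, from 13.16 and 13.06 to 8.64 and 8.17 (log2 change -4.71, adjusted p = 3.08e-09). The unstimulated means of these 2 genes were 6.75 and 8.63, and at 24 h both lay less than 1 log2 unit from them. Vsig4, the complement receptor of resident macrophages, followed the other course: it was 15.26 before LPS, 12.98 and 12.32 at 4 h and 7.27 and 7.16 at 24 h, a late change of -5.43 (standard error 0.28, adjusted p = 1.07e-08). Igf1 (log2 change -4.96, adjusted p = 6.72e-09), Alox15 (log2 change -4.89, adjusted p = 9.08e-08) and Timd4 (log2 change -4.70, adjusted p = 3.59e-09) were likewise higher before LPS than at 4 h, and lower at 24 h than at 4 h in both replicates. They encode insulin-like growth factor 1, 12/15-lipoxygenase and the phosphatidylserine receptor TIM-4. Fn1, which encodes fibronectin, fell after 4 h (log2 change -4.76, adjusted p = 5.87e-09), and its change from no LPS to 4 h did not pass. Plagl1 (-3.70) moved by over 1.5 times with the mean of all probes.

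For genes that were not well above background at one of the times, only a bound can be given. Beside Csta3, the largest bounds upward were at least 8.78-fold for Mirt2, a long non-coding RNA (adjusted p = 5.71e-08), 8.55-fold for the spindle and kinetochore gene Ska1 (adjusted p = 5.11e-09), 6.85-fold for the tubulin-modifying enzyme gene Ttll11 (adjusted p = 2.65e-06) and 6.48-fold for the mitotic checkpoint kinase Bub1 (adjusted p = 5.33e-09). Downward they were at least 11.9-fold for the C-type lectin Cd209a (adjusted p = 3.01e-05), 7.14-fold for the cilium gene Intu, 5.89-fold for Tnfrsf19, a TNF receptor family member, 5.36-fold for the collagen gene Col27a1 and 4.51-fold for the ethanolamine kinase gene Etnk2 (adjusted p from 1.08e-09 to 7.58e-07). Second probes of Cd209a, Intu, Tnfrsf19 and Etnk2 gave changes of -1.71, -1.51, -0.52 and -0.23. Mirt2 (5.85), Ska1 (5.19), Ttll11 (4.77), Bub1 (5.14), Cd209a (-7.35), Intu (-4.81), Tnfrsf19 (-4.49), Col27a1 (-5.14) and Etnk2 (-4.73) moved by over 1.5 times with the processed signals, and Tnfrsf19 (-1.54) and Etnk2 (-1.22) with the mean of all probes.

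**Figure D2:**
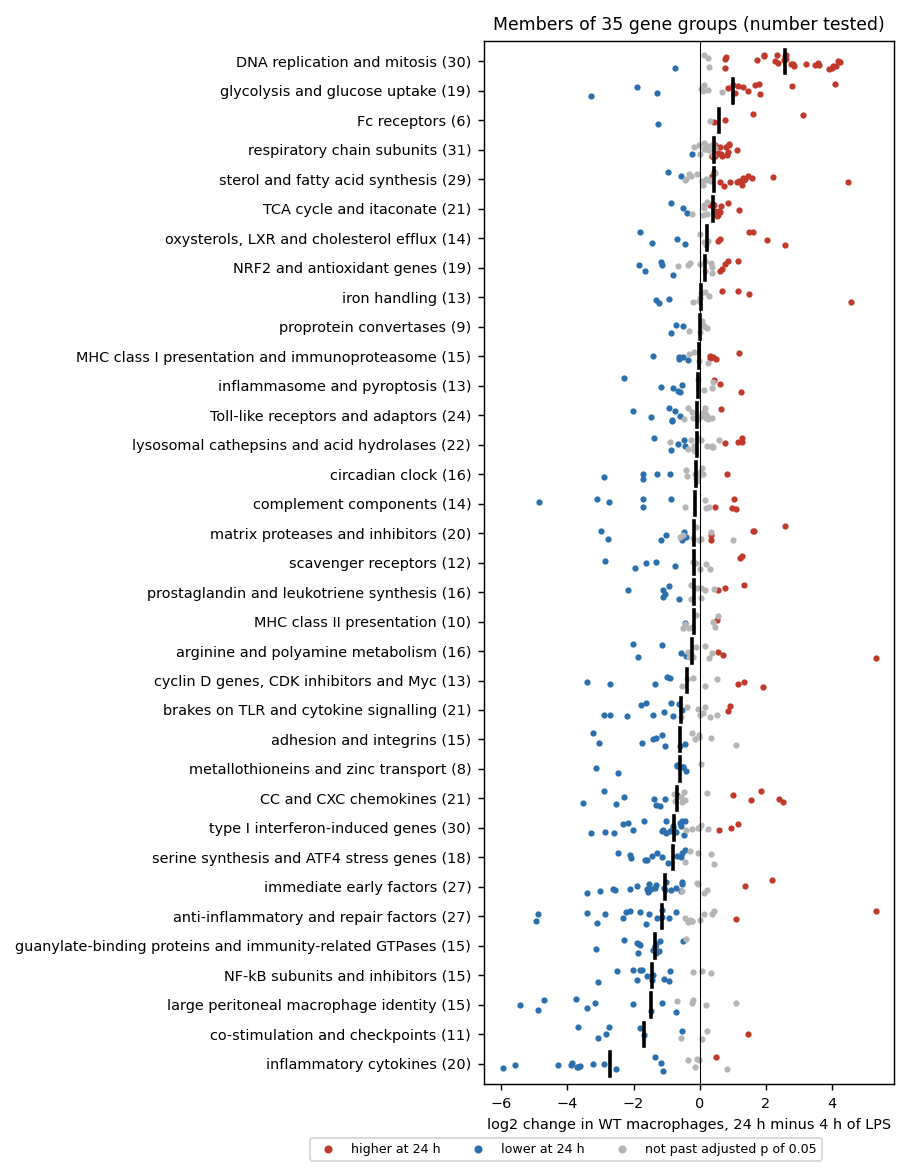
Log2 change from 4 h to 24 h of LPS in WT macrophages (horizontal axis) of every tested member of 35 gene groups, 1 group a row with its number of tested members, ordered by the median (black bar). Red members were higher and blue ones lower at 24 h (adjusted p under 0.05), and grey ones did not pass. The medians run from -2.71 for inflammatory cytokines to 2.59 for DNA replication and mitosis.

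The inflammatory cytokines, which carry the alarm from the macrophage to other cells, mostly fell. Of 20 tested, 14 were lower at 24 h, all of them at least 2-fold, Ebi3, a shared subunit of IL-27 and IL-35, was higher (log2 change 0.49, adjusted p = 0.00820), and 5 did not pass, with a median change of -2.71. Tnf, the early cytokine of the LPS response, had levels of 17.78 and 17.90 at 4 h and 13.18 and 13.91 at 24 h. Both 24 h samples were lower by several log2 units (log2 change -4.29, standard error 0.26, adjusted p = 4.54e-08), though they remained above the unstimulated mean of 10.81. Il15, a growth factor of NK and memory T cells, went from 12.15 and 11.77 to 8.38 and 7.76 (log2 change -3.89, standard error 0.19, adjusted p = 6.25e-09), near its unstimulated mean of 7.68. Il23a, a subunit of IL-23, fell (log2 change -3.86, adjusted p = 5.36e-08), and was well above background in 1 of the 2 samples at 24 h. Ifnb1, the interferon-β gene, fell from 13.06 and 13.48 to 7.71 and 7.63 (log2 change -5.60, standard error 0.18, adjusted p = 4.40e-10). The cytokines Il1b and Il6 did not share this course. Il1b had levels of 17.38 and 17.41 at 4 h and 17.21 and 17.51 at 24 h, against 9.95 before LPS, and its late change was -0.03 (standard error 0.26, adjusted p = 0.958). Il6 was at 17.06 and 17.25 at 4 h and 16.79 and 17.26 at 24 h, with an unstimulated mean of 7.61 and a change of -0.13 (standard error 0.28, adjusted p = 0.818). The samples of the 2 times overlapped for both genes. Il33, an alarmin, was at 7.99 and 7.65 at 4 h and 8.31 and 6.59 at 24 h, with 1 sample at 24 h above and the other below both at 4 h (log2 change -0.37, adjusted p = 0.577). Il12rb1, a receptor subunit for IL-12 and IL-23, changed by 0.76 (adjusted p = 0.00292). Ebi3 (0.84) and Il12rb1 (1.26) moved by over 1.5 times unscaled. Il12rb1 (0.56) lost the call without the 24 h sample of replicate 2.

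**Figure D3:**
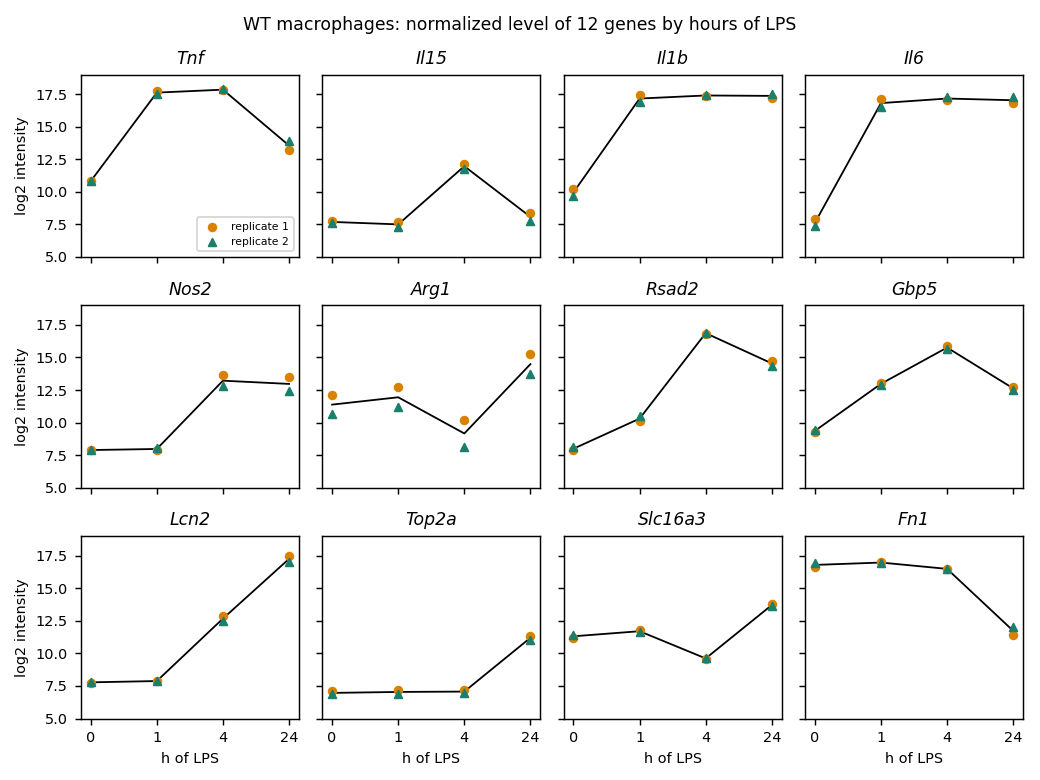
Normalized log2 intensity (vertical axis) of 12 genes in WT macrophages after 0, 1, 4 and 24 h of LPS (horizontal axis, not to scale), with replicate 1 as circles, replicate 2 as triangles and a line through the mean. Tnf, Il15, Rsad2 and Gbp5 peak at or before 4 h and are lower at 24 h, the replicates of 4 h and 24 h overlap for Il1b, Il6 and Nos2, Arg1, Lcn2, Top2a and Slc16a3 are highest at 24 h, and Fn1 falls after 4 h.

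Of 21 chemokines, 9 were lower, 5 were higher and 7 did not pass (median -0.69). Those that were higher were Ccl7, Cxcl5, Ccl12 (log2 change 1.86, adjusted p = 0.0253), Cxcl3 (log2 change 1.55, adjusted p = 0.000821) and Ccl2 (log2 change 0.997, adjusted p = 0.00627), attractants of monocytes or neutrophils. The decreases included Ccl24, an attractant of eosinophils, with levels of 13.81 and 13.52 at 4 h and 10.10 and 10.20 at 24 h (log2 change -3.52, standard error 0.21, adjusted p = 3.31e-08), Ccl6 (log2 change -2.89, adjusted p = 7.59e-06) and the interferon-induced Cxcl9 (log2 change -2.52, adjusted p = 6.25e-09). Against these, Ccl7, an attractant of monocytes, rose from 14.83 and 13.89 to 17.72 and 16.06 (log2 change 2.53, standard error 0.54, adjusted p = 0.00241), and Cxcl5, an attractant of neutrophils, from 12.14 and 11.72 to 13.81 and 14.87 (log2 change 2.41, standard error 0.33, adjusted p = 5.82e-05). Their unstimulated means of 7.98 and 7.79 were lower than any sample at 4 h, so both were higher at 4 h and higher still at 24 h. The neutrophil attractant Cxcl1 and the lymphocyte attractant Ccl5 did not pass, with changes of -0.77 (adjusted p = 0.0977) and -0.76 (adjusted p = 0.0771), and remained over 4 log2 units above their unstimulated means of 10.24 and 12.04. Ccl12 (0.56) and Ccl2 (0.77) lost the call without the 24 h sample of replicate 1, Ccl12 (2.12) without the 4 h sample of replicate 1, and Ccl12 (1.60) without the 4 h sample of replicate 2. Ccl12 (3.15) moved by over 1.5 times without the 24 h sample of replicate 2. Ccl12 (1.95) lost the call with the processed signals, Ccl12 (1.89) with an offset of 10, Ccl12 with only the 8 WT samples fitted, and Ccl12 with only these 4 samples fitted.

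The transcription factors and inhibitors that shape the early response were mostly lower at 24 h. Among 27 immediate early factors, which are switched on without new protein synthesis, 20 were lower, Dusp4 (log2 change 1.36, adjusted p = 4.62e-05) and Dusp6 higher and 5 not past the threshold (median -1.05). Myc, a driver of growth, went from 12.83 and 12.95 to 9.58 and 9.35 (log2 change -3.42, standard error 0.23, adjusted p = 1.01e-07), Nr4a1, an orphan nuclear receptor, changed by -3.01 (adjusted p = 4.54e-08), the phosphatase gene Dusp2 by -2.62 (adjusted p = 2.83e-06) and Fos by -2.57 (adjusted p = 1.98e-05). Dusp6, a phosphatase of ERK, rose instead, from 10.60 and 10.29 to 12.72 and 12.54 (log2 change 2.19, standard error 0.19, adjusted p = 1.04e-06). Egr2, a zinc finger factor, was at 9.99 and 10.40 at 4 h and 10.15 and 10.69 at 24 h against 13.41 without LPS (log2 change 0.23, adjusted p = 0.452). Of 15 NF-kB subunits and inhibitors, 12 fell and none rose (median -1.44), led by the nuclear inhibitor gene Nfkbid (log2 change -3.07, adjusted p = 1.01e-06) and the subunit gene Nfkb1 (log2 change -2.49, adjusted p = 1.55e-07), and with Nfkbiz (log2 change -2.02, adjusted p = 1.66e-06), Nfkb2 (log2 change -1.91, adjusted p = 2.31e-07) and Nfkbie (log2 change -1.81, adjusted p = 1.14e-07) after them. The brakes on TLR and cytokine signalling were lower in 11 of 21 cases and higher in Socs2 (log2 change 0.87, adjusted p = 0.00804) and Tnfaip8l2 (log2 change 0.92, adjusted p = 0.000310), with 8 not past the threshold (median -0.57, -0.18 unscaled). Peli1, a ubiquitin ligase, fell from 14.75 and 14.78 to 11.78 and 11.95 (log2 change -2.90, standard error 0.13, adjusted p = 3.32e-09), Cish, of the SOCS family, changed by -2.71 (adjusted p = 9.38e-07), the RNA-binding protein gene Zfp36 by -2.19 (adjusted p = 1.02e-06) and Tnfaip3, which encodes the deubiquitinase A20, by -1.62 (adjusted p = 2.43e-07). Irak3, a pseudokinase that holds back MyD88 signalling, did not pass, at 13.63 and 13.38 at 4 h and 13.61 and 13.59 at 24 h (log2 change 0.09, standard error 0.16, adjusted p = 0.764) and 11.80 without LPS. Among 24 Toll-like receptors and adaptors, 7 were lower, Tlr2, a receptor for bacterial lipoproteins, most (log2 change -2.03, adjusted p = 5.07e-06), Tlr6, its partner, was higher (log2 change 0.65, adjusted p = 0.00242), and 16 did not pass. Socs2 (1.38), Tnfaip8l2 (1.47) and Tlr6 (1.18) moved by over 1.5 times unscaled. Socs2 (0.77) lost the call without the 24 h sample of replicate 1, and Socs2 (0.39) without the 4 h sample of replicate 2. Socs2 (1.35) moved by over 1.5 times without the 4 h sample of replicate 1. Socs2 lost the call with only these 4 samples fitted.

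Promoter sequences (RefSeq, GRCm38.p6) are shown here for some of the groups whose members changed mostly in 1 direction, and for Cxcl1, which did not pass. They run from 250 bases before to 50 after the gene start, in the direction of the gene. Capitals mark matches, on either strand, to the letters of a motif, and no match shown overlaps one of another motif searched. The kappaB site, which NF-kB binds, was searched as GGGNNTTTC and is found in 5.06% of 27025 genes with a promoter. It was found in 5 of 14 chemokines with a promoter and in 4 of 11 NF-kB genes, and as well in 3 of 8 guanylate-binding and immunity-related GTPase genes. Cxcl1, whose level stayed far above that without LPS, and Nfkb2, which fell, each hold it 2 times. Nfkb2 has 3 starts in the table, of which 1 is shown. A match is a description of the letters and not a test of binding.
Cxcl1 (chr5:90890995-90891294, plus strand): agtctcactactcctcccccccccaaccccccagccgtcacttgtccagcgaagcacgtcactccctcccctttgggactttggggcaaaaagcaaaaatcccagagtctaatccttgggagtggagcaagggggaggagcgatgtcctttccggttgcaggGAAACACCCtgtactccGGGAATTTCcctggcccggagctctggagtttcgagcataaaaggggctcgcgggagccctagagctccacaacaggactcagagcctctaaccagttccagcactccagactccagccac
Nfkb2 (chr19:46305445-46305744, plus strand): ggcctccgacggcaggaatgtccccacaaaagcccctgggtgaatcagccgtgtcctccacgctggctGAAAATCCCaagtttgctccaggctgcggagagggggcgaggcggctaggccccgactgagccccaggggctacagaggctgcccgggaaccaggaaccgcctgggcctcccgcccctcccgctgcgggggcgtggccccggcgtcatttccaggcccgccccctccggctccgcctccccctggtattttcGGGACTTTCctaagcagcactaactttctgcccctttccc

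Genes for surface proteins with which a macrophage addresses lymphocytes were mostly lower as well. Of 11 co-stimulation and checkpoint genes, 7 were lower and Vsir, the checkpoint receptor VISTA, was higher (log2 change 1.45, adjusted p = 0.000360), with a median of -1.70. Cd40, which receives help from T cells, had levels of 15.40 and 15.50 at 4 h and 12.33 and 12.42 at 24 h, so that the replicates nearly coincided at each time, and its mean change was -3.08 (standard error 0.10, adjusted p = 4.40e-10). The ligand genes Tnfsf9 (log2 change -3.69, adjusted p = 1.24e-08) and Icosl (log2 change -2.85, adjusted p = 1.62e-07) and the maturation and co-stimulation genes Cd83 (log2 change -2.74, adjusted p = 2.45e-08) and Cd86 (log2 change -1.81, adjusted p = 2.29e-06) were lower too. Of 15 adhesion molecules and integrins, 9 fell and none rose (median -0.58, -0.24 unscaled), among them the leukocyte ligands Vcam1 (log2 change -3.23, adjusted p = 7.17e-07) and Icam1 (log2 change -3.05, adjusted p = 5.72e-09) and the hyaluronan receptor Cd44 (log2 change -1.73, adjusted p = 1.24e-08), whereas Itgam, the integrin CD11b, was at 12.79 and 12.74 at 4 h and 12.85 and 12.67 at 24 h (log2 change -0.0097, standard error 0.13, adjusted p = 0.975). Il10, the cytokine that restrains macrophages, was lower at 24 h from 12.16 and 12.08 to 10.95 and 10.68 (log2 change -1.31, standard error 0.33, adjusted p = 0.00747). In the list of anti-inflammatory and repair factors, 16 of 27 were lower, and Arg1 and the decoy receptor gene Il1r2 (log2 change 1.11, adjusted p = 1.58e-05) were higher (median -1.13, -0.66 unscaled), with the growth factor genes Tgfb2 (log2 change -3.41, adjusted p = 8.42e-07) and Gdf15 (log2 change -3.11, adjusted p = 0.000131) among the decreases. Il1rn, which encodes the IL-1 receptor antagonist, did not pass (log2 change 0.37, adjusted p = 0.529), with 13.54 and 12.64 at 4 h and 13.97 and 12.94 at 24 h and an unstimulated mean of 8.51. Il10 (-0.92) was not called unscaled. Il10 (-1.17) lost the call without the 24 h sample of replicate 2. Il1r2 (2.65) moved by over 1.5 times with the processed signals, and Cd44 (-1.06) with the mean of all probes.

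Interferon-induced genes mostly came down from their 4 h level, though most members remained far above their unstimulated level. Of 30 tested, 21 were lower, Ifi44 (log2 change 1.16, adjusted p = 0.00224), Bst2 (log2 change 0.94, adjusted p = 0.000115) and Irf7 (log2 change 0.58, adjusted p = 0.0458) higher and 6 not past the threshold (median -0.77, -0.41 unscaled), while the median of their log2 differences between 24 h and no LPS was 4.04. Rsad2, which encodes the antiviral enzyme viperin, had levels of 16.82 and 16.91 at 4 h and 14.76 and 14.33 at 24 h (log2 change -2.32, standard error 0.17, adjusted p = 2.35e-07) and an unstimulated mean of 7.99. Cmpk2, its neighbour in the genome and a nucleotide kinase, went from 16.13 and 16.001 to 13.03 and 12.52 (log2 change -3.29, standard error 0.17, adjusted p = 1.10e-08). Ifit2, which binds foreign RNA, changed by -2.86 (adjusted p = 5.35e-06), the RNA sensor gene Ifih1 by -2.60 (adjusted p = 3.28e-08) and the ubiquitin ligase gene Herc6 by -2.16 (adjusted p = 1.56e-07), with -0.39 at a second probe. Oas1a, an oligoadenylate synthetase gene, did not pass (log2 change -0.06, adjusted p = 0.799). Of 15 guanylate-binding proteins and immunity-related GTPases, which attack the vacuoles of microbes, 14 were lower, 13 of them at least 2-fold, and none was higher (median -1.37). Gbp5 had levels of 15.85 and 15.67 at 4 h and 12.73 and 12.53 at 24 h (log2 change -3.13, standard error 0.20, adjusted p = 5.36e-08) and Gbp2 of 16.31 and 16.22 at 4 h and 14.28 and 14.57 at 24 h (log2 change -1.84, standard error 0.14, adjusted p = 3.33e-07), both above their unstimulated means of 9.36 and 12.51 at 24 h. Iigp1 (log2 change -2.30, adjusted p = 6.51e-06), Gbp3 (log2 change -1.90, adjusted p = 4.92e-07) and Tgtp1 (log2 change -1.86, adjusted p = 3.74e-08) moved the same way. Members of these families are similar in sequence and a probe may read more than 1 of them. Irf7 (0.93) moved by over 1.5 times unscaled. Irf7 (0.46) lost the call without the 24 h sample of replicate 1, Irf7 (0.70) without the 24 h sample of replicate 2, and Irf7 (0.36) without the 4 h sample of replicate 2. Ifi44 (1.22) and Irf7 (0.63) lost the call with the processed signals, Irf7 (0.58) with an offset of 10, Irf7 (0.58) with the mean of all probes, and Irf7 with only the 8 WT samples fitted. Herc6 (-1.28) moved by over 1.5 times with the mean of all probes.

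The core of the interferon-stimulated response element, at which the ISGF3 complex and other IRF proteins bind, was searched as GAAANNGAA. It is found in 9.76% of genes with a promoter, in 8 of 8 guanylate-binding and immunity-related GTPase genes with a promoter in the table, and in 13 of 23 interferon-induced genes. It was in a similar share of the large peritoneal macrophage identity genes, 5 of 9, and in at most 30.8% of the genes of any other list. The promoters of Gbp2, Gbp5 and Rsad2, whose values are given above, each hold it once.
Gbp2 (chr3:142620413-142620712, plus strand): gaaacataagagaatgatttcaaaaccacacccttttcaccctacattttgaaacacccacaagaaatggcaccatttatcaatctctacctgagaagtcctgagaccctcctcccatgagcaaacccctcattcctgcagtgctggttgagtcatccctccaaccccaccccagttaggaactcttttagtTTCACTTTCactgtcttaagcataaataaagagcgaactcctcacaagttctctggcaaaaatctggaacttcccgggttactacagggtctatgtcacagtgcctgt
Gbp5 (chr3:142496684-142496983, plus strand): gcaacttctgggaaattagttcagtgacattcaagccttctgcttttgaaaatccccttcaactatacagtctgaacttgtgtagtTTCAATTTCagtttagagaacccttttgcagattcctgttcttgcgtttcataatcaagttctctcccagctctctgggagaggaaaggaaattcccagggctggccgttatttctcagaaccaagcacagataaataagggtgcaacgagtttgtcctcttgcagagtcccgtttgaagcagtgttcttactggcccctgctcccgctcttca
Rsad2 (chr12:26456403-26456702, minus strand): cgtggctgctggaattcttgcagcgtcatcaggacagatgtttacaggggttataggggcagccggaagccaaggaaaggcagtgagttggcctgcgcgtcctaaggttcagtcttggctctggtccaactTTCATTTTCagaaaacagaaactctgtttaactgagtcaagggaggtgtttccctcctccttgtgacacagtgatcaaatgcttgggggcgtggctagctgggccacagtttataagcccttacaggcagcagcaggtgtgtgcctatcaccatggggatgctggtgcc

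Genes of DNA replication and mitosis had the highest median change of the 35 groups. Of 30 tested, 26 were higher at 24 h, 23 of them at least 2-fold, 1 was lower and 3 did not pass (median 2.59), against 30.4% higher among named genes well above background. The median was 2.71 in replicate 1 and 2.48 in replicate 2. Rrm2, the small subunit of ribonucleotide reductase, had levels of 9.43 and 8.94 at 4 h and 13.62 and 13.22 at 24 h (log2 change 4.23, standard error 0.25, adjusted p = 3.50e-08). Top2a, the topoisomerase of dividing cells, rose from 7.17 and 6.97 to 11.35 and 11.06 (log2 change 4.13, standard error 0.17, adjusted p = 2.59e-09), and its level at 4 h was close to the unstimulated mean of 6.97. The mitotic genes Plk1 (log2 change 4.18, adjusted p = 4.40e-10), Birc5 (log2 change 4.04, adjusted p = 1.09e-08), Ccnb2 (log2 change 3.99, adjusted p = 3.85e-10) and Cdca3 (log2 change 4.41, adjusted p = 3.85e-10) rose by similar amounts, none with overlap between times. Pcna, the replication clamp, did not pass (log2 change 0.29, adjusted p = 0.212), nor did the thymidylate synthase gene Tyms (log2 change 0.24, adjusted p = 0.392). The member that was lower was Mki67, the proliferation marker Ki-67, with 13.61 and 13.47 at 4 h and 12.83 and 12.77 at 24 h at its brightest probe (log2 change -0.74, standard error 0.15, adjusted p = 0.00151), a similar -0.75 at a second probe and an unstimulated mean of 9.76. In the list of cyclin D genes, CDK inhibitors and Myc, 5 of 13 were lower, Myc, Cdkn1a, Ccnd2, Cdkn1c (log2 change -0.98, adjusted p = 0.000336) and Max (log2 change -0.89, adjusted p = 0.000264), and 3 were higher, Cdkn2c, Cdkn2d (log2 change 1.34, adjusted p = 2.74e-06) and Ccnd3 (log2 change 1.17, adjusted p = 2.03e-05). Cdkn1a, which encodes the cell cycle inhibitor p21, fell from 14.92 and 14.79 to 12.17 and 12.10 (log2 change -2.72, standard error 0.13, adjusted p = 8.06e-09), with 0.0072 at another probe, and Ccnd2, cyclin D2, fell by 1.37 on the log2 scale (adjusted p = 4.85e-06). Cdkn2c, an inhibitor of CDK4 and CDK6, was not well above background at 4 h and was at least 3.66-fold higher at 24 h (adjusted p = 4.26e-07). The summed T and NK cell markers were 13.46 and 13.88 at 4 h and 13.62 and 13.78 at 24 h, and those of B cells and fibroblasts are given above. Of 11 B cell markers, 4 were higher, 1 lower and 6 not past the threshold. Of 11 mesothelial and fibroblast markers, 2 were higher, 1 lower and 8 not past it, and of 12 T and NK cell markers 1, 3 and 8. Those higher included the B cell genes Fcrla (2.23), Cd79b (1.75) and Cd79a (0.999) and the fibroblast genes Dcn (2.04) and Lum (1.48), on the log2 scale. Their values under other settings are given with the marker lists below. The part of such cells in the rise was not tested. Mki67 (-0.41) was not called unscaled. Cdkn1c (-0.64) and Max (-0.57) moved by over 1.5 times unscaled. Cdkn1c (-1.64) and Cdkn2c (3.86) moved by over 1.5 times with the processed signals, and Cdkn1a (-1.35) with the mean of all probes.

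The E2F site, bound by factors that open the S phase, was searched as TTTNNCGC and is found in 5.93% of genes with a promoter and in 8 of 25 genes of DNA replication and mitosis, and in 3 of 11 genes of the oxysterol and cholesterol efflux list. Mcm5, a subunit of the replicative helicase, and Cdc6, which loads it, are shown as members of the group that hold it and were picked after their values were seen. Mcm5 rose from 10.04 and 10.24 to 12.84 and 12.64 (log2 change 2.60, standard error 0.15, adjusted p = 3.45e-08) and Cdc6 from 6.82 and 6.57 to 9.67 and 9.43 (log2 change 2.86, standard error 0.14, adjusted p = 9.23e-09). The 2 matches of Mcm5 lie on opposite strands and overlap each other.
Mcm5 (chr8:75109259-75109558, plus strand): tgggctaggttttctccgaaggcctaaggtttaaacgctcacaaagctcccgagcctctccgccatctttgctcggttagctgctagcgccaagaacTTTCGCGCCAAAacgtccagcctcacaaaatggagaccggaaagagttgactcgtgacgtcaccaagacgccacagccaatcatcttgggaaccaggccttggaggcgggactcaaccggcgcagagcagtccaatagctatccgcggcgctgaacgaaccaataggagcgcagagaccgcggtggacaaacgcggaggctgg
Cdc6 (chr11:98907901-98908200, plus strand): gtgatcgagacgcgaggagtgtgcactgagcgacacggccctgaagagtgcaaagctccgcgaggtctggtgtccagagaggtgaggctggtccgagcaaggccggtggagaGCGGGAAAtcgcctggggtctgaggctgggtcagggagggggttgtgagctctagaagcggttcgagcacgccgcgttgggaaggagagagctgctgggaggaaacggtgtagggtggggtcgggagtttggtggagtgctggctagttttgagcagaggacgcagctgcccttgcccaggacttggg

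Of 19 genes of glycolysis and glucose uptake, 11 were higher, 9 of them at least 2-fold, 3 lower and 5 not past the threshold (median 0.999). Slc16a3, the lactate exporter MCT4, had levels of 9.55 and 9.69 at 4 h and 13.77 and 13.66 at 24 h, a change of 4.10 (standard error 0.18, adjusted p = 3.25e-09), from an unstimulated mean of 11.32. The triose phosphate isomerase gene Tpi1 rose from 11.84 and 11.78 to 14.78 and 14.41 (log2 change 2.78, standard error 0.13, adjusted p = 6.44e-09) and Pkm, pyruvate kinase, from 13.23 and 13.21 to 15.18 and 14.92 (log2 change 1.83, standard error 0.11, adjusted p = 3.70e-08). Both had been lower at 4 h than before LPS, where their means were 13.44 and 14.50. The decreases were in Slc2a6 (log2 change -3.30, adjusted p = 3.03e-09), a sugar transporter of lysosomes, in Pfkp (log2 change -1.89, adjusted p = 2.77e-07), 1 of the phosphofructokinases, and in the hexokinase Hk2 (log2 change -1.29, adjusted p = 4.24e-05). The usual reference genes Gapdh and Pgk1 belong to this pathway and were themselves higher at 24 h, with changes of 1.32 (adjusted p = 7.52e-06) and 1.66 (adjusted p = 2.57e-07), whereas Actb did not pass (log2 change -0.17, adjusted p = 0.409). Of the 12 housekeeping genes, 2 were lower and 2 higher. Ywhaz was among the former (log2 change -0.55, adjusted p = 0.000447). Ywhaz (-0.04) was not called unscaled. Pfkp (-1.24) moved by over 1.5 times with the mean of all probes.

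Of 21 genes of the TCA cycle and itaconate synthesis, 12 were higher and 3, Acod1, Dlst (log2 change -0.51, adjusted p = 0.00460) and Cs (log2 change -0.38, adjusted p = 0.0393), lower (median 0.39, 0.82 unscaled). Of 31 respiratory chain subunits, 18 were higher and Uqcrfs1 lower (log2 change -0.24, adjusted p = 0.0432), with a median of 0.43, 0.76 unscaled. In each of these 2 lists, 1 increase reached 2-fold. The dehydrogenase genes Mdh1 (log2 change 1.20, adjusted p = 2.72e-06) and Idh2 (log2 change 0.86, adjusted p = 3.73e-05), the complex I gene Ndufv1 (log2 change 1.12, adjusted p = 2.33e-07) and the ATP synthase gene Atp5c1 (log2 change 0.88, adjusted p = 3.68e-05) are examples, each lower in both samples at 4 h than in both unstimulated samples. Acod1, which makes itaconate, went from 17.32 and 17.44 to 16.37 and 16.63 (log2 change -0.88, standard error 0.17, adjusted p = 0.000900) and thus stayed well over its unstimulated mean of 13.02. Of 29 genes of sterol and fatty acid synthesis, 15 were higher, 10 of them at least 2-fold, and Srebf2 (log2 change -0.97, adjusted p = 0.000126), the regulator of the pathway, and Fasn (log2 change -0.57, adjusted p = 0.0226), fatty acid synthase, were lower (median 0.42, 0.88 unscaled). Mevalonate kinase, Mvk, had levels of 9.47 and 9.34 at 4 h and 11.56 and 11.65 at 24 h (log2 change 2.20, standard error 0.19, adjusted p = 7.34e-07), and Pmvk, the enzyme that follows it, of 10.78 and 10.79 at 4 h and 12.29 and 12.41 at 24 h (log2 change 1.57, standard error 0.14, adjusted p = 1.17e-06). Ebp and Dhcr7, which act late in cholesterol synthesis, rose by 1.36 (adjusted p = 2.38e-06) and 1.45 (adjusted p = 2.08e-06), Dhcr7 being well above background in 1 of 2 samples at 4 h. Dlst (-0.15), Cs (-0.0085), Uqcrfs1 (0.12) and Fasn (-0.26) were not called unscaled. Idh2 (1.39) and Srebf2 (-0.52) moved by over 1.5 times unscaled. Dlst (-0.38), Cs (-0.25), Uqcrfs1 (-0.21) and Fasn (-0.44) lost the call without the 24 h sample of replicate 1, Uqcrfs1 (-0.27) without the 24 h sample of replicate 2, Cs (-0.35) and Uqcrfs1 (-0.27) without the 4 h sample of replicate 1, and Cs (-0.41), Uqcrfs1 (-0.21) and Fasn (-0.24) without the 4 h sample of replicate 2. Fasn (-0.90) moved by over 1.5 times without the 4 h sample of replicate 1. Cs (-0.41) and Uqcrfs1 (-0.24) lost the call with the processed signals, Cs (-0.38) and Uqcrfs1 (-0.24) with an offset of 10, Cs, Uqcrfs1 and Fasn with only the 8 WT samples fitted, and Cs, Uqcrfs1 and Fasn with only these 4 samples fitted. Fasn (-0.97) and Dhcr7 (2.65) moved by over 1.5 times with the processed signals.

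Of 14 genes of oxysterols, LXR and cholesterol efflux, 6 were higher and 4 lower. Ch25h, which makes 25-hydroxycholesterol, rose from 13.18 and 12.81 to 15.92 and 14.16 (log2 change 2.05, standard error 0.44, adjusted p = 0.00228), from an unstimulated mean of 6.25. The 24 h samples were apart from each other and above both at 4 h. Nr1h3, the oxysterol receptor LXRα, went from 8.71 and 8.76 to 11.56 and 11.06 (log2 change 2.57, standard error 0.15, adjusted p = 3.81e-08), and the cholesterol exporters Abcg1 and Abca1 changed by 1.62 (adjusted p = 0.00102) and 1.49 (adjusted p = 0.000173). The decreases were in Cyp7b1, which removes oxysterols (log2 change -1.79, adjusted p = 1.37e-06), the lipid transfer gene Pltp (log2 change -1.45, adjusted p = 0.000146), Cyp27a1 (log2 change -0.69, adjusted p = 0.00727) and Apoe (log2 change -0.45, adjusted p = 0.00917). Among 12 scavenger receptors, 5 were lower, Cxcl16 (log2 change -1.33, adjusted p = 1.17e-06) and Colec12 (log2 change -0.74, adjusted p = 0.00381) beside the 3 that follow, and Scarb1 (log2 change 1.29, adjusted p = 0.000576) and Stab1 (log2 change 1.22, adjusted p = 0.0125) were higher. Olr1, the receptor for oxidized low-density lipoprotein, had levels of 12.68 and 12.46 at 4 h and 9.84 and 9.60 at 24 h (log2 change -2.85, standard error 0.17, adjusted p = 3.87e-08), Cd36 of 11.85 and 12.17 at 4 h and 9.74 and 10.38 at 24 h (log2 change -1.94, standard error 0.19, adjusted p = 2.33e-06) and Mrc1, the mannose receptor, of 9.04 and 8.67 at 4 h and 7.40 and 7.04 at 24 h (log2 change -1.64, standard error 0.21, adjusted p = 3.68e-05). Marco, a receptor for bacteria and particles, did not pass (log2 change -0.21, adjusted p = 0.687). Apoe (-0.39) and Colec12 (-0.32) were not called unscaled. Cyp27a1 (-0.68) and Stab1 (0.99) lost the call without the 24 h sample of replicate 1, Apoe (-0.24) without the 24 h sample of replicate 2, Cyp27a1 (-0.60) without the 4 h sample of replicate 1, and Apoe (-0.44) and Stab1 (0.72) without the 4 h sample of replicate 2. Ch25h (1.17) and Abcg1 (1.07) moved by over 1.5 times without the 24 h sample of replicate 1. Stab1 (1.37) lost the call with the processed signals, Apoe (-0.52) under Aquantile, and Apoe with only these 4 samples fitted. Cyp7b1 (-2.89) and Cyp27a1 (-2.98) moved by over 1.5 times with the processed signals, and Cyp27a1 (-1.23) with an offset of 10.

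In arginine metabolism, Arg1 rose as given above, while Nos2, the inducible nitric oxide synthase that competes for the same substrate, was at 13.66 and 12.77 at 4 h and 13.52 and 12.42 at 24 h (log2 change -0.25, standard error 0.37, adjusted p = 0.722), with overlapping samples and an unstimulated mean of 7.89. The arginine importer gene Slc7a1 fell (log2 change -2.03, adjusted p = 4.48e-07). Sat1, which breaks down polyamines (log2 change -1.88, adjusted p = 3.42e-08), and Gch1, which makes the cofactor of nitric oxide synthase (log2 change -1.13, adjusted p = 0.000293), were lower, as were the polyamine synthase genes Srm (log2 change -0.57, adjusted p = 0.00576) and Sms (log2 change -0.42, adjusted p = 0.0255). Asl (log2 change 0.70, adjusted p = 0.000223) and Ass1 (log2 change 0.56, adjusted p = 0.0292), which regenerate arginine, were higher, and of the 16 genes in this list 8 did not pass. Srm (-0.21) and Sms (0.04) were not called unscaled. Asl (1.25) and Ass1 (0.92) moved by over 1.5 times unscaled. Sms (-0.39) and Ass1 (0.55) lost the call without the 24 h sample of replicate 1, Srm (-0.46), Sms (-0.44) and Ass1 (0.56) without the 24 h sample of replicate 2, Ass1 (0.60) without the 4 h sample of replicate 1, and Sms (-0.30) and Ass1 (0.52) without the 4 h sample of replicate 2. Ass1 (0.56) lost the call with the processed signals, Sms (-0.43) and Ass1 (0.56) with an offset of 10, Ass1 (0.54) with the mean of all probes, and Ass1 with only the 8 WT samples fitted.

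Most genes that mark the resident large peritoneal macrophage fell after 4 h. Of 15, 10 were lower at 24 h than at 4 h, 9 of them at least 2-fold, and none was higher (median -1.46). The median log2 difference from unstimulated cells was -0.99 at 4 h and -2.59 at 24 h. Fabp4, a fatty acid-binding protein, had levels of 14.96 and 14.69 at 4 h and 11.03 and 11.16 at 24 h (log2 change -3.73, standard error 0.19, adjusted p = 9.50e-09) and an unstimulated mean of 15.52, and Vsig4, Alox15, Timd4 and Tgfb2 of the same list are given above. Icam2 and Cd93 did not pass, with changes of 0.18 (adjusted p = 0.264) and -0.69 (adjusted p = 0.0609). Of 9 general macrophage markers, Mertk (log2 change -2.33, adjusted p = 1.49e-07), Lyz2, Spi1 (log2 change -1.03, adjusted p = 3.33e-05), Cd14 (log2 change -0.74, adjusted p = 0.0430) and Csf1r (log2 change -0.73, adjusted p = 0.00136) were lower and Fcgr1 and Adgre1 (log2 change 0.66, adjusted p = 0.00825) higher. Lyz2, which also carries the Cre of the KO, fell from 17.27 and 16.89 to 16.08 and 15.62 (log2 change -1.23, standard error 0.21, adjusted p = 0.000362). In the complement list, 6 of 14 were lower and 4, C3ar1 (log2 change 1.11, adjusted p = 4.64e-05), C2 (log2 change 1.04, adjusted p = 0.00666), Cfb (log2 change 0.97, adjusted p = 0.000246) and C1ra (log2 change 0.47, adjusted p = 0.0121), higher. Cd14 (-0.47) and Csf1r (-0.38) were not called unscaled. Spi1 (-0.54), C3ar1 (1.67), C2 (1.57) and C1ra (1.02) moved by over 1.5 times unscaled. Cd14 (-0.59) and C1ra (0.49) lost the call without the 24 h sample of replicate 1, Adgre1 (0.41) and C1ra (0.44) without the 24 h sample of replicate 2, Cd14 (-0.58) without the 4 h sample of replicate 1, and C2 (0.89) and C1ra (0.36) without the 4 h sample of replicate 2. Cd14 (-0.74) lost the call with the processed signals, Cd14 (-0.74) with an offset of 10, Cd14 (-0.74) with the mean of all probes, and Cd14 (-0.74) with the replicate block.

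The 3 chains of C1q, which starts the classical pathway, were all lower. C1qa was at 14.67 and 13.83 at 4 h and 12.82 and 12.23 at 24 h (log2 change -1.72, standard error 0.28, adjusted p = 0.000281), C1qb changed by -2.76 (adjusted p = 1.10e-05) and C1qc by -3.09 (adjusted p = 3.59e-07). The C5a receptor gene C5ar1 fell as well (log2 change -1.70, adjusted p = 1.24e-06), and C3 did not pass (log2 change 0.17, adjusted p = 0.564). Of 6 Fc receptor genes, 4 rose and 1 fell, with 1 not past the threshold. Their median was 0.59, against 0.96 unscaled and 0.36 without the 4 h sample of replicate 2. Fcgr1, the high-affinity IgG receptor, went from 10.69 and 8.97 to 13.28 and 12.63 (log2 change 3.12, standard error 0.46, adjusted p = 0.000110) and Fcgr4 from 11.38 and 10.40 to 13.13 and 11.85 (log2 change 1.60, standard error 0.45, adjusted p = 0.0151). Fcgr3 (log2 change 0.76, adjusted p = 0.0134) and Fcgr2b (log2 change 0.43, adjusted p = 0.0264) rose less, while Fcgrt, the neonatal Fc receptor, fell (log2 change -1.26, adjusted p = 0.00249). Fcgr3 (1.14), Fcgr2b (0.78) and Fcgrt (-0.77) moved by over 1.5 times unscaled. Fcgr4 (0.95), Fcgr3 (0.57) and Fcgr2b (0.31) lost the call without the 24 h sample of replicate 1, and Fcgr4 (1.11), Fcgr3 (0.50) and Fcgr2b (0.23) without the 4 h sample of replicate 2. Fcgr2b (0.43) lost the call with an offset of 10, Fcgr2b with only the 8 WT samples fitted, and Fcgr2b with only these 4 samples fitted.

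Most mast cell markers and 4 of 7 dendritic cell markers were lower at 24 h in the same samples. Of 9 mast cell markers, 8 were lower and none higher (median -1.90), with a summed level of 15.54 and 15.06 at 4 h and 13.66 and 13.75 at 24 h, and Ms4a2 was not well above background at either time. Cpa3, the mast cell carboxypeptidase, had levels of 12.09 and 11.80 at 4 h and 9.22 and 8.28 at 24 h (log2 change -3.20, standard error 0.42, adjusted p = 4.42e-05). Of 7 dendritic cell markers, Cd209a, Zbtb46 (log2 change -2.70, adjusted p = 3.87e-08), Ccr7 (log2 change -2.39, adjusted p = 5.11e-06) and Siglech (log2 change -0.60, adjusted p = 0.000495) were lower and Flt3 (log2 change 0.88, adjusted p = 0.000203) higher, with summed levels of 15.98 and 15.95 at 4 h and 15.04 and 15.09 at 24 h, and Xcr1 and Clec9a were not well above background. Of 11 B cell markers, 4 were higher and 1 at least 2-fold lower. Those higher were Fcrla (log2 change 2.23, adjusted p = 2.17e-06), Cd79b (log2 change 1.75, adjusted p = 9.02e-06), Cd79a (log2 change 0.999, adjusted p = 0.00868) and Cd22 (log2 change 0.58, adjusted p = 0.00951). Of 12 T and NK cell markers, Cd2 (log2 change 1.04, adjusted p = 0.000835) was higher and Gzma (log2 change -1.38, adjusted p = 9.41e-06), Cd3e (log2 change -0.79, adjusted p = 0.0227) and Nkg7 (log2 change -0.53, adjusted p = 0.00871) lower. Of 11 mesothelial and fibroblast markers, Dcn (log2 change 2.04, adjusted p = 8.51e-07) and Lum (log2 change 1.48, adjusted p = 0.000971) were higher and Msln (log2 change -0.64, adjusted p = 0.0222) lower, and of 6 eosinophil markers, Ccr3 (log2 change 0.70, adjusted p = 0.00368) was higher and Siglecf (log2 change -0.75, adjusted p = 0.000720) lower. The part of these cells in the changes of other genes, Cd209a and the co-stimulation genes among them, was not tested. Siglech (-0.21), Cd3e (-0.30), Nkg7 (-0.01) and Msln (-0.50) were not called unscaled. Cd79a (1.51) and Cd22 (1.11) moved by over 1.5 times unscaled. Cd79a (0.98), Cd22 (0.57), Cd3e (-0.70) and Msln (-0.73) lost the call without the 24 h sample of replicate 1, Cd22 (0.59), Cd3e (-0.88), Nkg7 (-0.45) and Msln (-0.55) without the 24 h sample of replicate 2, Cd79a (0.80) without the 4 h sample of replicate 1, and Cd22 (0.40), Cd3e (-0.53) and Msln (-0.22) without the 4 h sample of replicate 2. Msln (-1.06) moved by over 1.5 times without the 4 h sample of replicate 1. Msln lost the call with only the 8 WT samples fitted, and Msln with only these 4 samples fitted. Gzma (-2.24), Lum (4.26), Msln (-2.27), Ccr3 (1.66) and Siglecf (-3.19) moved by over 1.5 times with the processed signals, Lum (2.26), Msln (-0.97) and Siglecf (-1.25) with an offset of 10, and Siglech (-0.26), Flt3 (0.55) and Nkg7 (-0.32) with the mean of all probes.

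**Figure D4:**
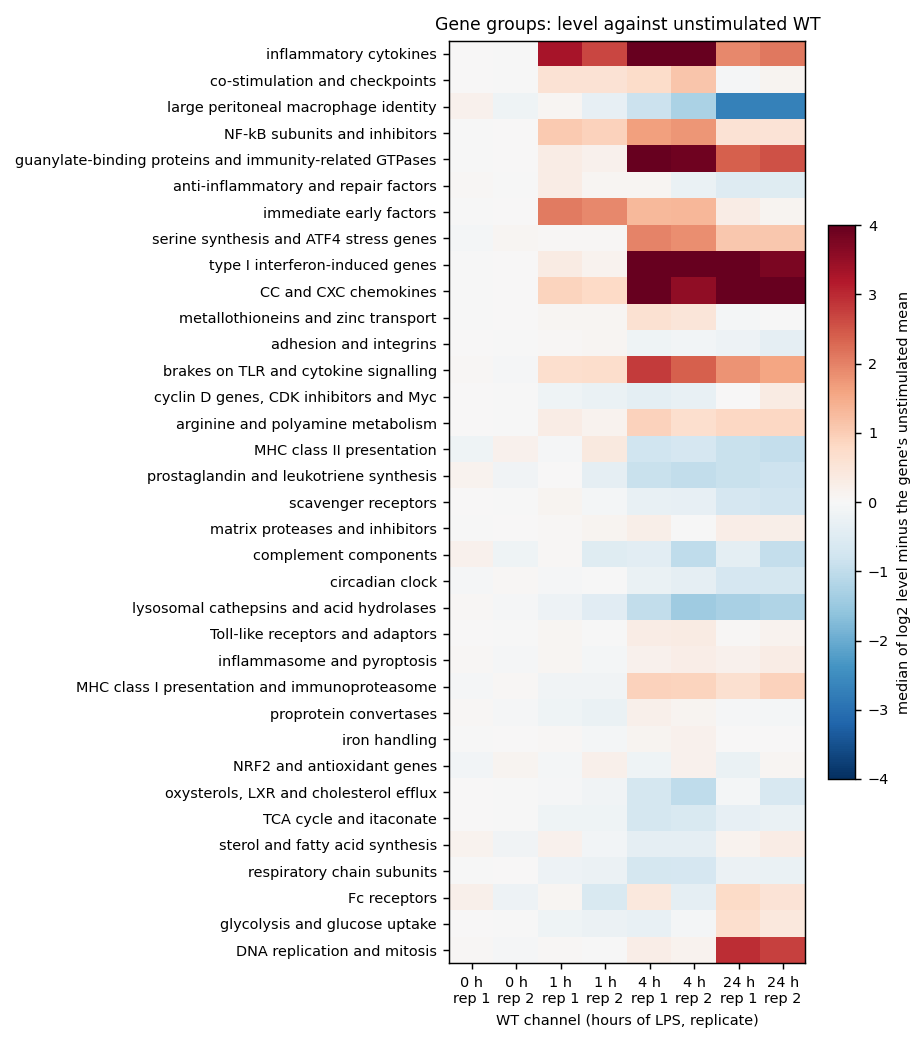
Median, over the members of each of 35 gene groups (rows, ordered by their median change from 4 h to 24 h), of the log2 level minus the gene's mean in unstimulated WT macrophages, in the 8 WT samples (columns, by hours of LPS and replicate), with red above and blue below 0 and colours that stop at -4 and 4. Inflammatory cytokines stand at 5.78 and 5.71 at 4 h and 1.92 and 2.11 at 24 h, and DNA replication and mitosis at 0.26 and 0.15 at 4 h and 2.94 and 2.72 at 24 h.

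Genes of the ATF4 stress response, which restores amino acids and protein folding, were mostly lower at 24 h. Of 18 genes of serine synthesis and of the ATF4 stress response, 13 were lower and none higher (median -0.82), from a median of 1.92 above unstimulated cells at 4 h. Chac1, which degrades glutathione, fell from 14.02 and 13.97 to 11.79 and 11.24 (log2 change -2.48, standard error 0.15, adjusted p = 4.56e-08), around its unstimulated mean of 11.43. The phosphatase regulator Ppp1r15a (log2 change -2.12, adjusted p = 8.07e-08), the sestrin gene Sesn2 (log2 change -2.07, adjusted p = 6.86e-07), the asparagine synthetase gene Asns (log2 change -1.67, adjusted p = 2.79e-07) and Trib3 (log2 change -1.59, adjusted p = 2.88e-06) were lower too, and Phgdh, the first enzyme of serine synthesis, did not pass (log2 change -0.30, adjusted p = 0.219). Of 8 genes of metallothioneins and zinc transport, 7 were lower and 1 did not pass (median -0.60, -0.10 unscaled). Mt2 went from 16.84 and 15.55 to 13.36 and 12.79 (log2 change -3.13, standard error 0.41, adjusted p = 4.24e-05) and its paralog Mt1 from 17.18 and 16.50 to 14.32 and 14.44 (log2 change -2.46, standard error 0.24, adjusted p = 2.67e-06). Metallothioneins bind zinc and copper. The NRF2 and antioxidant list was divided, with 5 higher, 5 lower and 9 not past the threshold. Nfe2l2, which encodes NRF2 itself, fell (log2 change -1.83, adjusted p = 4.12e-06), as did Sqstm1 (log2 change -1.67, adjusted p = 0.000109), the thioredoxin reductase gene Txnrd1 (log2 change -1.18, adjusted p = 0.00118), the cystine importer gene Slc7a11 (log2 change -1.14, adjusted p = 0.0197) and Gclc (log2 change -0.81, adjusted p = 0.00611), whereas G6pdx (log2 change 0.86, adjusted p = 7.96e-06), Sod1 (log2 change 0.76, adjusted p = 0.000483), Gpx4 (log2 change 0.66, adjusted p = 2.24e-05) and Gsr (log2 change 0.60, adjusted p = 0.00281) rose and Nqo1 rose from 7.94 and 8.32 to 8.47 and 10.11 (log2 change 1.16, standard error 0.40, adjusted p = 0.0441). The increase of Nqo1, a quinone reductase, was mostly in replicate 2. Sod2, the mitochondrial superoxide dismutase, was at 17.49 and 17.55 at 4 h and 17.65 and 18.10 at 24 h (log2 change 0.35, standard error 0.15, adjusted p = 0.101). Slc7a11 (-0.82) and Gclc (-0.43) were not called unscaled. Gpx4 (1.04) and Gsr (0.95) moved by over 1.5 times unscaled. Slc7a11 (-0.55) and Gclc (-0.54) lost the call without the 24 h sample of replicate 1, Nqo1 (0.34) without the 24 h sample of replicate 2, Nqo1 (0.97) without the 4 h sample of replicate 1, and Slc7a11 (-1.01), Gclc (-0.68) and Nqo1 (1.36) without the 4 h sample of replicate 2. Txnrd1 (-0.74) and Nqo1 (1.98) moved by over 1.5 times without the 24 h sample of replicate 1, and Slc7a11 (-1.72) without the 24 h sample of replicate 2. Nqo1 (1.52) lost the call with the processed signals, Nqo1 (1.27) with an offset of 10, Nqo1 (1.16) with the mean of all probes, Nqo1 (1.15) under Aquantile, Nqo1 with only the 8 WT samples fitted, and Nqo1 with only these 4 samples fitted.

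The amino acid response element, a site of ATF4, was searched as TGATGNAAN and is found in 4.5% of genes with a promoter and in 5 of 17 of the serine and ATF4 list. The metal response element, bound by MTF1, was searched as TGCNCNCG and is found in 14.7% of genes with a promoter and in 3 of 7 of the metallothionein and zinc list, and in 4 of 9 of the list of cyclin D genes, CDK inhibitors and Myc. Chac1 holds the former once and Mt2 the latter 4 times. The sterol regulatory element, searched as TCACNCCAC, was found in 1.44% of genes with a promoter and in 1 of 21 of the sterol and fatty acid list. The antioxidant response element core, searched as TGACNNNGC, was found in 14% of genes and in 7 of 16 of the NRF2 and antioxidant list. It was also in 6 of 9 of the list of cyclin D genes, CDK inhibitors and Myc.
Chac1 (chr2:119350992-119351291, plus strand): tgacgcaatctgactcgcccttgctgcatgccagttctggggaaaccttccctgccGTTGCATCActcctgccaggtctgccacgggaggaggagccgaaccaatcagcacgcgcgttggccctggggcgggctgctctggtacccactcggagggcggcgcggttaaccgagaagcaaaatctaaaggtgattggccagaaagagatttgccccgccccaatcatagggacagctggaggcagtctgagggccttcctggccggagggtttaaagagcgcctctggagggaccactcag
Mt2 (chr8:94172368-94172667, plus strand): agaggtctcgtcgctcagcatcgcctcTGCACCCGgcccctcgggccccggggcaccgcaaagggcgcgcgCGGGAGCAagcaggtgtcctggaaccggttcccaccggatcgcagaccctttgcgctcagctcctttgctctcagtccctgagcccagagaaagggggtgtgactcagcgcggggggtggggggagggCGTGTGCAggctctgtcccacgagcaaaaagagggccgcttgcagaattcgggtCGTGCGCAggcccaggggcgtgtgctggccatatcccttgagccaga

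The remaining groups changed in part, and for those with a median near 0 the sign of the median is not stable: without scaling between arrays it lay above 0 for the Toll-like receptor, MHC class I and II, inflammasome, arginine, prostaglandin, lysosome, clock, complement and matrix lists. Among 16 prostaglandin and leukotriene genes, 6 were lower and 3, Ptgs1, Lta4h (log2 change 0.77, adjusted p = 3.05e-05) and Alox5ap (log2 change 0.56, adjusted p = 0.0199), higher. Ptgs2, cyclooxygenase 2, fell from 16.45 and 16.27 to 14.97 and 15.64 (log2 change -1.06, standard error 0.26, adjusted p = 0.00590) and stayed over 7 log2 units above its unstimulated mean of 7.13, while Ptgs1, cyclooxygenase 1, rose (log2 change 1.33, adjusted p = 0.00147). The prostacyclin synthase gene Ptgis (log2 change -2.17, adjusted p = 8.15e-05) and the lipoxygenase gene Alox5 (log2 change -1.11, adjusted p = 0.00149) were lower. In the inflammasome list, 6 of 13 were lower and 3 higher. Nlrp3, the sensor, fell from 11.23 and 11.04 to 8.75 and 8.97 (log2 change -2.28, standard error 0.15, adjusted p = 1.08e-07), the caspase gene Casp4, whose product senses LPS in the cytosol, changed by -1.16 (adjusted p = 0.000364), and Nlrc4 (log2 change 1.25, adjusted p = 8.55e-06), Naip2 (log2 change 0.61, adjusted p = 0.00196) and Txnip (log2 change 0.44, adjusted p = 0.0231) rose. Of 10 MHC class II genes, H2-DMa, which loads peptides, was higher (log2 change 0.52, adjusted p = 0.00723), the cathepsin S gene Ctss lower (log2 change -0.45, adjusted p = 0.0263) and 8 did not pass, among them H2-Ab1 (log2 change -0.11, adjusted p = 0.672). In the MHC class I list, 6 were higher, the non-classical H2-M3 most (log2 change 1.18, adjusted p = 0.000503). The 5 that were lower were Nlrc5, the transactivator of class I genes (log2 change -1.43, adjusted p = 1.44e-06), the peptide transporter genes Tap1 (log2 change -0.62, adjusted p = 0.00640) and Tap2 (log2 change -0.52, adjusted p = 0.0229), and the proteasome genes Psme2 (log2 change -0.64, adjusted p = 0.000687) and Psmb10 (log2 change -0.36, adjusted p = 0.0154). Ptgs2 (-0.69), Alox5 (-0.62), Ctss (-0.16), Tap1 (-0.28), Tap2 (-0.13), Psme2 (-0.33) and Psmb10 (-0.0042) were not called unscaled. Lta4h (1.32), Alox5ap (0.90), Naip2 (1.03), Txnip (0.87) and H2-DMa (1.04) moved by over 1.5 times unscaled. Ptgs2 (-0.72), Txnip (0.35), H2-DMa (0.50), Ctss (-0.40), Tap2 (-0.56) and Psmb10 (-0.32) lost the call without the 24 h sample of replicate 1, Alox5ap (0.40), Ctss (-0.50), Tap1 (-0.52) and Tap2 (-0.47) without the 24 h sample of replicate 2, Ptgs2 (-0.97), H2-DMa (0.48), Tap1 (-0.50), Tap2 (-0.23) and Psmb10 (-0.21) without the 4 h sample of replicate 1, and Alox5ap (0.42), Txnip (0.33) and Ctss (-0.40) without the 4 h sample of replicate 2. Ptgs1 (0.87) and Tap2 (-0.81) moved by over 1.5 times without the 4 h sample of replicate 2. Txnip (0.44), Ctss (-0.45) and Psmb10 (-0.36) lost the call with an offset of 10, Ctss (-0.39) and Tap2 (-0.47) under Aquantile, Alox5ap and Tap2 with only the 8 WT samples fitted, and Tap2 and Psmb10 with only these 4 samples fitted.

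Of 16 clock genes, 5 were lower, Rora (log2 change -1.71, adjusted p = 5.02e-07), Bhlhe40 (log2 change -1.29, adjusted p = 3.07e-06) and Clock (log2 change -0.90, adjusted p = 4.70e-05) among them, and Bhlhe41 was higher (log2 change 0.82, adjusted p = 0.000327). The REV-ERB repressor genes Nr1d1 and Nr1d2 had the largest decreases, from 10.08 and 9.17 to 6.58 and 6.88 (log2 change -2.90, standard error 0.26, adjusted p = 1.37e-06) and from 9.57 and 9.59 to 7.73 and 7.997 (log2 change -1.72, standard error 0.10, adjusted p = 3.75e-08). Of 20 matrix proteases and inhibitors, 7 were lower and 5 higher. Timp2, an inhibitor of metalloproteases, fell (log2 change -2.78, adjusted p = 6.67e-08), and the protease genes Mmp9 (log2 change 2.59, adjusted p = 8.86e-07), Adam8 (log2 change 1.64, adjusted p = 0.000228), Mmp13 (log2 change 1.60, adjusted p = 9.56e-05), Adam10 (log2 change 0.35, adjusted p = 0.0279) and Mmp19 (log2 change 0.33, adjusted p = 0.0188) rose. Among 22 lysosomal genes, Tfeb, Ctsh (log2 change 1.17, adjusted p = 1.44e-06) and Ctsz (log2 change 0.78, adjusted p = 0.000403) were higher, Ctsf (log2 change -1.39, adjusted p = 0.000319), Ctsk (log2 change -0.88, adjusted p = 0.000388), Hexa (log2 change -0.66, adjusted p = 0.0135), Lipa (log2 change -0.48, adjusted p = 0.00830) and Ctss lower, and the cathepsin B gene Ctsb did not pass (log2 change -0.13, adjusted p = 0.470). Tfeb, the transcription factor of lysosomal genes, rose from 6.94 and 7.32 to 8.46 and 8.33 (log2 change 1.26, standard error 0.12, adjusted p = 1.93e-06). In iron handling, 4 of 13 were higher and 3 lower. Ceruloplasmin, Cp, rose (log2 change 1.503, adjusted p = 0.000797), as did Slc11a1, the iron and manganese transporter NRAMP1 (log2 change 1.15, adjusted p = 4.44e-05), Hamp, the iron hormone hepcidin (log2 change 0.66, adjusted p = 0.0289), and Lcn2 above, while Steap4 (log2 change -1.31, adjusted p = 0.00106), Bach1 (log2 change -1.22, adjusted p = 0.00236) and the transferrin receptor gene Tfrc (log2 change -0.93, adjusted p = 0.000170) fell and the ferritin gene Fth1 did not pass (log2 change 0.28, adjusted p = 0.0731). Of 9 proprotein convertases, 3 were lower and none higher. Furin, whose product cleaves proproteins in the secretory pathway, had levels of 12.02 and 11.64 at 4 h and 11.18 and 11.06 at 24 h and changed by -0.71 (standard error 0.14, adjusted p = 0.000973). Pcsk7 changed by -0.51 (adjusted p = 0.00325) and Pcsk4 by -0.88 (adjusted p = 5.69e-05). Trem1, a receptor that amplifies inflammatory signals, was at 9.77 and 8.95 at 4 h and 9.46 and 9.21 at 24 h (log2 change -0.03, standard error 0.29, adjusted p = 0.967). Ctsk (-0.39), Hexa (-0.29), Lipa (-0.06), Bach1 (-0.78), Tfrc (-0.44), Furin (-0.29) and Pcsk7 (-0.0037) were not called unscaled. Bhlhe40 (-0.79), Clock (-0.42) and Adam10 (0.84) moved by over 1.5 times unscaled. Adam10 (0.42), Mmp19 (0.27), Hexa (-0.41), Lipa (-0.30) and Hamp (0.58) lost the call without the 24 h sample of replicate 1, Adam10 (0.28), Hamp (0.74) and Pcsk7 (-0.41) without the 24 h sample of replicate 2, Adam10 (0.34) and Mmp19 (0.30) without the 4 h sample of replicate 1, and Adam10 (0.36), Lipa (-0.38) and Hamp (0.24) without the 4 h sample of replicate 2. Hamp (1.08) and Bach1 (-0.70) moved by over 1.5 times without the 4 h sample of replicate 1. Hamp (1.70) lost the call with the processed signals, Adam10 (0.35) and Hamp (0.94) with an offset of 10, Mmp19 and Hamp with only the 8 WT samples fitted, and Adam10, Mmp19, Lipa and Hamp with only these 4 samples fitted. Rora (-2.58), Bhlhe41 (1.47), Nr1d1 (-4.59), Mmp19 (0.92), Tfeb (1.97), Steap4 (-4.34) and Pcsk4 (-1.59) moved by over 1.5 times with the processed signals, and Mmp19 (0.51) and Steap4 (-2.09) with an offset of 10.

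Of 4607 long intergenic RNAs that carry only a position as a name, 1010 changed (21.9%), 287 upward (6.23%) and 723 downward (15.7%). Over all genes and transcripts these shares were 29.7%, 15.1% and 14.6%, so the downward share lay near that of all. With the mean of all probes, 202 of the long intergenic RNAs were higher and 381 lower. Without scaling between arrays the split was 462 upward and 184 downward, so their direction rests on the scaling, and without the 24 h sample of replicate 2 it was 243 upward and 444 downward.

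The same interval was read in the RNA labelled KO, on the same spots. Furin itself was at 12.02 and 11.97 there at 4 h and 10.59 and 10.38 at 24 h, against 12.02 and 11.64 and 11.18 and 11.06 in WT, so its signal was not lower than in WT at 4 h. Where the probe lies relative to the deleted part of the gene is not given in the sources used here. There, 11345 of 36936 genes and transcripts changed (30.7%). The KO change had the same sign as the WT change for 2054 of the 2057 genes and transcripts that were at least 2-fold higher in WT and for 1541 of the 1543 that were at least 2-fold lower. In limma's test of the difference between the 2 changes, 0 genes and transcripts passed an adjusted p of 0.05, the smallest adjusted p was 0.0698, and 1048 had an unadjusted p under 0.05. The count was 25 without scaling between arrays, 5 under Aquantile, 5 with the processed signals and 38 with the replicate number and the dye as terms. Over the 7621 named genes called in WT, the median absolute difference between the 2 changes was 0.12 log2 units, beside a median absolute change of 0.80 in WT. In 47 of them it exceeded 2-fold. For Abca1, the change was 1.21 and 1.78 in the WT replicates and -0.86 and -0.23 in those of KO, a difference of -2.04 (standard error 0.31, adjusted p = 0.0836). For Olr1 it was -2.85 and -2.86 in WT and -4.96 and -4.10 in KO (difference -1.68, adjusted p = 0.0698), for Il15 -3.77 and -4.01 and -2.89 and -2.87 (difference 1.01, adjusted p = 0.579), and for Furin -0.84 and -0.58 and -1.43 and -1.60 (difference -0.80, adjusted p = 0.396). A p that misses the threshold does not show that the genotypes act alike.

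**Figure D5:**
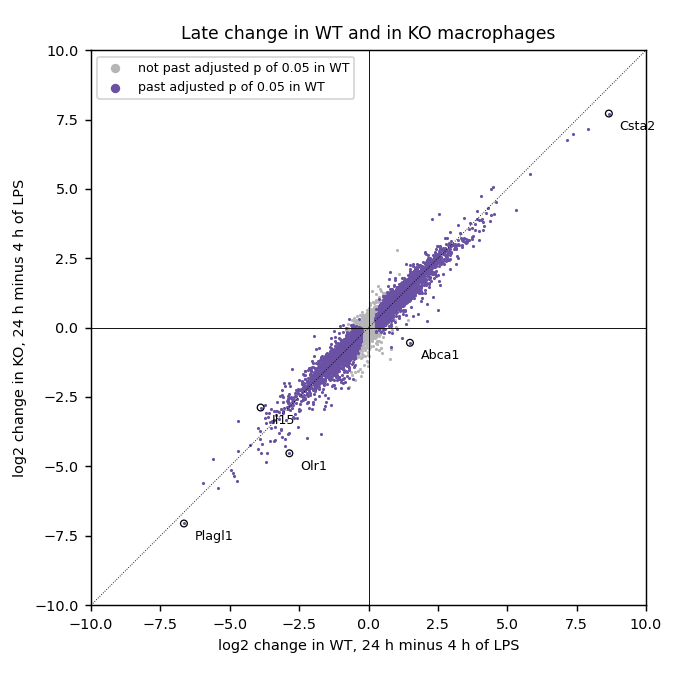
Each point is 1 of 20839 named genes, with its log2 change from 4 h to 24 h of LPS in WT macrophages on the horizontal axis and in KO macrophages on the vertical axis, purple where it passed an adjusted p of 0.05 in WT, and a dotted line of equal change. Points lie along the line, with Olr1 below it at -2.85 in WT and -4.53 in KO.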

How the data were processed

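RNA was hybridized to 8 Agilent 2-colour arrays on 1 slide, each with WT RNA in one dye and KO RNA in the other. Per the file headers, the authors read the scans with Agilent Feature Extraction 10.7.3 into median spot and background intensity for each dye, without normalization, along with processed intensity values and spot flags, for 62976 spots. The deposited log2 ratios (Cy5 over Cy3) had been normalized by the authors with loess regression and quantile normalization in limma. They correlated with the ratios computed here at r of at least 0.987 on every array, and were used only for this check, which also set the direction of the dyes, and as an alternative.

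Median intensity was background-corrected (normexp, offset 50), normalized within arrays (loess) and scaled between all 16 channels (quantile). Control spots and spots marked as outliers were left out. The 55681 gene probes were reduced to the brightest probe of each gene, and those whose mean over the channels fell under a log2 intensity of 6 were dropped, which left 36936 genes and transcripts. limma's separate-channel fit was run on all 16 channels with 8 group means and a within-spot correlation of 0.105, with Benjamini-Hochberg adjustment over all genes tested and a threshold of 0.05. The change of KO minus that of WT was a contrast of the same fit. A gene not well above background in either sample of a time was given as a bound, the mean at the other time against, on each array, the higher of its own signal and the lowest signal among probes well above background, after loess and Aquantile. Dye and replicate number coincide in the WT samples, and the number of arrays limits the precision. The labels do not tie the replicates to animals, so p-values measure only the spread between these samples. Versions were R 4.3.3, limma 3.58.1, statmod 1.5.0, the R package data.table (1.17.8), Python 3.11.15, numpy 2.4.6, pandas 2.3.3 and matplotlib 3.10.9.

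The fit was tested on simulated data for WT at 24 h against 4 h over 36936 genes. It recovered 38% of genes changed 1.5-fold, 92% at 2-fold, 98% at 4-fold and 100% at 8-fold (50 genes each), and 5.75% of its calls were false. Only those genes were changed, a far smaller share than was called in the data. Noise was independent between arrays and added after normalization. Deviations shared by replicates and effects of the scaling were left out, so these shares do not measure recovery or false calls in the data. Alternatives were other background corrections and scalings, filters on dim genes, the mean of a gene's probes, and the replicate number and the dye as terms. Further ones were fewer samples in the fit, each sample left out together with its array, and the methods' t-test.

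The 35 gene groups and 10 marker lists, and the comparison itself, were chosen with earlier results of these data known. Genes were named by a rule. It took the 10 largest increases and the 10 largest decreases among genes well above background in all 4 WT samples, the 5 largest bounds in each direction, up to 5 members past the threshold with the largest change and the 2 brightest that did not pass in each group, genes the study names for its LPS response or the knockout, and up to 5 in each direction past the threshold for KO minus WT. Not all of those are printed. Results for some genes are not reported here, so that the members named do not always add up to a count. Marker genes, members named to complete a short count, and genes called in the list of their group beyond those 5 were named after their values were seen. Promoters came from RefSeq (GRCm38.p6, 27025 genes) and were matched by symbol.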

Additional observations from a re-analysis of the deposited data

Results flagged for a closer look

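Among the genes whose values are given above, 7 moved one way in both WT replicates and the other way in both replicates of the RNA labelled KO between 4 h and 24 h. Over all named genes there were 723 of this kind, 2 of which were called in both genotypes. For Abca1, the cholesterol exporter, the KO change was lower than the WT change by a difference of -2.04 (adjusted p = 0.0836 in limma's test of the difference). Ass1, which regenerates arginine, was higher at 24 h in WT (0.52 and 0.59) and lower in KO (-0.30 and -0.08), a difference of -0.75 (adjusted p = 0.99985, limma). Its call in WT was lost with each of the 4 samples left out. The thymidylate synthase gene Tyms changed by 0.19 and 0.29 in WT and -0.55 and -0.17 in KO (difference -0.60), and Il1rn, the IL-1 receptor antagonist gene, by 0.43 and 0.31 and -0.51 and -0.45 (difference -0.85). The chemokine Ccl5 changed by -1.01 and -0.50 in WT and 0.0004 and 0.26 in KO (difference 0.89), Nos2, the inducible nitric oxide synthase, by -0.14 and -0.36 and 0.46 and 0.45 (difference 0.71), and Actb by -0.14 and -0.21 in WT and less than 0.001 in KO (difference 0.17). The adjusted p of these 5 differences was 0.99985 in limma, and none of the 7 passed.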

How the results depend on the processing

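Of the 277 genes given with values, 253 passed in WT at 24 h against 4 h. Of these, 46 lost the call without at least 1 of the 4 samples compared. Without the 24 h sample of replicate 1 these were 34 genes, among them Ptgs2, Ccl2, Ccl12, Fcgr3, Fcgr4, Cd14, Fasn and Irf7. Without that of replicate 2 they were 22, among them Il10, Adgre1, Apoe and Nqo1, without the 4 h sample of replicate 1 they were 16 and without that of replicate 2 they were 27. None of the 253, which were called from these same samples, changed sign when a sample was left out. With loess within arrays only, that is without scaling between arrays, 31 lost the call, and Elane (0.074), Sms (0.039) and Uqcrfs1 (0.12) changed sign. Among genes that had not passed, the sign turned under that setting for Ctsb (0.14), H2-Ab1 (0.12), Il6 (0.016), Itgam (0.36), Nos2 (0.092), Oas1a (0.16), Phgdh (0.055) and Trem1 (0.50), under Aquantile for Actb (0.067), with the processed signals for Il1b (0.051) and with the mean of all probes for Itgam (0.26). With each sample left out in turn, the sign also turned for C3 (-0.034 to 0.38), Egr2 (-0.045 to 0.50), Il1b (-0.18 to 0.12), Il1rn (-0.15 to 0.88), Il33 (-1.23 to 0.49), Il6 (-0.36 to 0.10), Irak3 (-0.031 to 0.21), Itgam (-0.10 to 0.081), Nos2 (-0.80 to 0.30), Oas1a (-0.17 to 0.055), Trem1 (-0.43 to 0.38) and Tyms (-0.052 to 0.54). Under the methods' t-test after Benjamini-Hochberg, 252 of the 253 lost the call. Calls were also lost for 15 genes with only the 4 WT samples of both times fitted, 14 with an offset of 10 and 13 with only the 8 WT samples. The processed signals lost 10, Aquantile 4 and the mean of all probes 4. Called changes moved by over 1.5 times for 62 genes without scaling between arrays, 30 with the processed signals, 11 with the mean of all probes and 6 with an offset of 10. The cause was not tested.

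The 10971 calls became 8816 to 10758 with a sample left out, of which 4687 to 5467 were higher and 4129 to 5291 lower, and 9887 to 12870 under the other limma settings. Without scaling between arrays, 8262 were higher and 2094 lower. The methods' t-test, on the same values, gave 9666 genes and transcripts at an unadjusted p under 0.05 and 12 after Benjamini-Hochberg, 6 higher and 6 lower. The test of KO minus WT, with 0 calls, gave 5 under Aquantile, 5 with the processed signals, 25 without scaling between arrays, 38 with the replicate block and dye term and 0 to 2 with a sample left out (2 without the 24 h arrays of replicate 2 and 1 without those of replicate 1). With the authors' normalized log2 ratios, an alternative chosen after seeing the data, it gave 0. For long intergenic RNAs the mean of all probes gave 202 higher and 381 lower, and without the 24 h sample of replicate 2 there were 444 lower. The median of the Fc receptor genes ran from 0.36 to 0.82 with a 4 h or 24 h sample left out, and that of the NRF2 list turned to -0.16 without the 4 h sample of replicate 1 and to -0.14 without the 24 h sample of replicate 2.

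Samples with the same replicate number deviated from their group means together, at r of 0.339 to 0.565 over the 6 pairs of times and 0.391 between 4 h and 24 h in WT. With 2 numbers, each tied to 1 dye, this gives no pairing from the design. With the replicate block there were 11228 calls, 5668 higher and 5560 lower, and the call of Cd14 was lost. With 2 samples a group, genes not well above background have only bounds, and changes of low genes are understated by the offset.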
